A study of Mus musculus with 9 samples.

Results

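Asymmetric dimethylation of arginine 2 on histone H3 (H3R2me2a) was mapped by chromatin immunoprecipitation and sequencing in mouse bone marrow cells that the series describes as leukemia cells. The peak lists of 2 Prmt6 knockout replicates (Prmt6KO 1 and Prmt6KO 2) were compared with those of 2 wild-type replicates (WT 1 and WT 2), which are 4 of the 9 samples in the series. The other 5 are 2 Igf2bp2KO replicates and 1 input sample for each genotype, not analysed here. Per the labels' protocols, all groups were cultured in IMDM with serum, mouse IL3, IL6 and SCF and fixed for 10 minutes in 1% formaldehyde. The sequencing libraries went through 20 cycles of amplification and a size selection of 250 to 450 bp. The labels give the genotypes only as Prmt6KO and WT, with no allele, age or sex. They do not say whether replicates came from separate animals or cultures, so p-values here measure only the spread between these samples. The 2 WT lists differed on chromosomes X and Y, as given below. A peak list of a histone mark measures neither the expression of cell type markers nor the loss of the targeted gene, so neither the labelled cell type nor the knockout could be checked in this way.

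PRMT6 is the arginine methyltransferase best known for placing H3R2me2a. At promoters this mark and trimethylation of lysine 4 on the same histone tail tend to exclude each other, because the methylated arginine hinders the WDR5-containing MLL complexes that methylate the lysine, and active CpG-rich promoters usually carry the lysine mark. The series title also names MFSD2A, a membrane transporter of lysophospholipids, as acting with PRMT6 in leukemia stem cells. The comparison therefore asks where H3R2me2a peaks lie, and how dense they are, with and without Prmt6.

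H3R2me2a peaks in all 4 lists were rare over CpG-rich promoters and were found at few promoters in common. Of 20085 listed starts of protein-coding genes on chromosomes 1 to 19, 20 had a peak of the matched level (explained below) over the window from 250 bases before to 50 after the start in every list, and 18 of these 20 starts were CpG-poor. The 3 with the highest peaks among genes with a given symbol, each taken at its lowest ratio of height to background over the lists, are shown as the 250 bases before the start, with CpG dinucleotides in capitals, from RefSeq (GRCm38.p6, the same assembly as mm10). They belong to Zfp979 (chr4:147642509-147642758, minus strand), a zinc finger protein gene, Trpm8 (chr1:88306485-88306734, plus strand), a cold-sensing ion channel gene, and Sp140 (chr1:85600453-85600702, plus strand), a gene of the SP100 family of nuclear body proteins. Beside them stand the promoters of the study's own genes, Prmt6 (chr3:110251000-110251249, minus strand) and Mfsd2a (chr4:122961189-122961438, minus strand), which had no such peak in any of the 4 lists.
Zfp979: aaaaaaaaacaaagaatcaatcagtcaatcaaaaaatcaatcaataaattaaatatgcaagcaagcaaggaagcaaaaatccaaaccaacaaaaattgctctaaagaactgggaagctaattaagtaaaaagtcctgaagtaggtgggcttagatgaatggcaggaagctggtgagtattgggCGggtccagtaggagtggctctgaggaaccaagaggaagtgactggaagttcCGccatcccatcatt
Trpm8: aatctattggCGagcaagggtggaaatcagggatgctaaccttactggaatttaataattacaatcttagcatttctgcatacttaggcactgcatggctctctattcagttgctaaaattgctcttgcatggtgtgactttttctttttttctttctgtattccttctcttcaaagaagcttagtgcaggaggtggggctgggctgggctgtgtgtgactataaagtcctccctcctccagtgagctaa
Sp140: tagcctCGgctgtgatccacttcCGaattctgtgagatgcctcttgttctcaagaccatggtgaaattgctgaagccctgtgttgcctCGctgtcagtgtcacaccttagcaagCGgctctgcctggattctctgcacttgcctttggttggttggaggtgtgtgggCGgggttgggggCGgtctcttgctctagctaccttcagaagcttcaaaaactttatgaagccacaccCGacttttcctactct
Prmt6: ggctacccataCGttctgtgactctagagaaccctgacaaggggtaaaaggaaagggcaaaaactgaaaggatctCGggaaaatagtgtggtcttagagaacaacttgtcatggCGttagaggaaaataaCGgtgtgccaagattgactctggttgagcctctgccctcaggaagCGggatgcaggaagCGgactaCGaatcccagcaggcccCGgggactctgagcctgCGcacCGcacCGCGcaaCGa
Mfsd2a: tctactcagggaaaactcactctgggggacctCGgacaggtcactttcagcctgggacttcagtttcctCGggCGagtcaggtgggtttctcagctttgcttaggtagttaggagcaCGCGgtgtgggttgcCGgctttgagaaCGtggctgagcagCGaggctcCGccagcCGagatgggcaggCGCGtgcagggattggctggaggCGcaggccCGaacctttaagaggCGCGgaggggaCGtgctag
The stretches of Zfp979, Trpm8 and Sp140 hold 2, 1 and 7 CpG, and those of Prmt6 and Mfsd2a hold 13 and 17. The highest peak over the Sp140 promoter had 12 and 9 fragments in WT 1 and WT 2 and 9 and 11 in Prmt6KO 1 and Prmt6KO 2, which is 8.21 and 6.26 times the list's background in WT and 12.2 and 9.1 times in Prmt6KO. By fragments the genotypes overlapped there, and relative to background both knockout lists were higher. The 1 Mb regions that hold Trpm8 and Sp140 were denser in peaks than the list's mean in every list. Zfp979 lies in a cluster of partly near-identical genes on chromosome 4, described below. Several of the starts with a peak in every list lie close together, on chromosomes 1, 6 and 8. Whether the peaks over these promoters exceed those of their regions was not tested.

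The lists differed first in depth. MACS2 had written each peak's summit height as a whole number of overlapping fragments, and the background that its fold enrichment implies was constant within each list: 1.46 and 1.44 fragments in WT 1 and WT 2, 0.736 in Prmt6KO 1 and 1.21 in Prmt6KO 2. The lowest summit listed was 4 fragments in both WT lists, 2 in Prmt6KO 1 and 3 in Prmt6KO 2. The lists held 160428 and 123625 peaks on chromosomes 1 to 19 in WT, against 761463 in Prmt6KO 1 and 396471 in Prmt6KO 2, and these totals moved with background and with the lowest height. The matched level therefore kept, in each list, summits so high that the list's own background would give them with a Poisson probability of at most 0.01, which meant at least 6, 6, 4 and 5 fragments. WT 1 stood apart on the sex chromosomes: its density of matched-level peaks relative to chromosomes 1 to 19 was 0.175 on X and 0.386 on Y, against 0.982 to 1.27 on X and 0.00941 to 0.0199 on Y in the other 3 lists. The results below use chromosomes 1 to 19, and values without each list are given where they change a result.

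At the matched level, WT 1 held 99336 peaks and WT 2 held 69112, and Prmt6KO 1 and Prmt6KO 2 held 198640 and 191526. Of these peaks, 4.88% in WT 1 and 3.59% in WT 2 had a MACS2 q value of at most 0.05. In Prmt6KO 1 and Prmt6KO 2 these shares were 1.89% and 2.73%. Most matched-level peaks in every list thus did not reach that q value. Both knockout lists were longer than both WT lists, by 1.24 on the log2 scale (17.57 ± 0.04 against 16.34 ± 0.37, SD, n = 2 each). The two-sided exact permutation test gave p = 0.333, the smallest p that 2 lists against 2 allow. Heights are whole fragments, so the Poisson probabilities reached were 0.00393 and 0.00365 in WT 1 and WT 2 and 0.00685 and 0.00798 in Prmt6KO 1 and Prmt6KO 2. The matched level was thus looser in the knockout lists. With a Poisson probability of at most 0.002 the log2 difference was 0.73. That level was also looser in the knockout lists, with probabilities reached of 0.000796 and 0.000727 in WT 1 and WT 2 and 0.000983 and 0.00156 in Prmt6KO 1 and Prmt6KO 2. The order itself depended on how heights were matched. Among summits of at least 6 fragments in every list there were 99336 and 69112 peaks in WT but 14240 in Prmt6KO 1 and 59470 in Prmt6KO 2, so that the knockout lists were the shorter ones, by a log2 difference of -1.51. Very high peaks were few in every list: 94 and 49 summits in WT and 37 and 71 in Prmt6KO reached 20 fragments. All 37 of Prmt6KO 1 lay within 500 bp of one of the 71 in Prmt6KO 2, and 36 of them within 500 bp of one in WT 1.

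**Figure D1:**
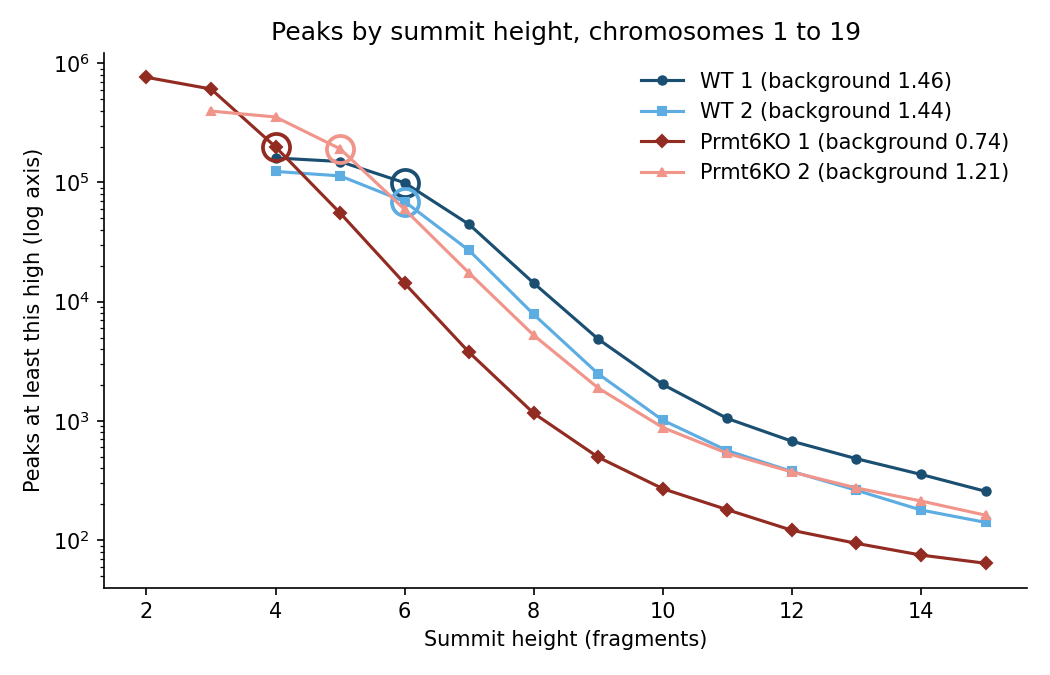
Number of peaks on chromosomes 1 to 19 with a summit at least as high as the value on the horizontal axis (fragments), on a log axis, for the 4 lists, with each list's background in fragments in the legend. Open circles mark the matched level, at 6 fragments in WT 1 and WT 2, 4 in Prmt6KO 1 and 5 in Prmt6KO 2. The Prmt6KO 1 curve lies above the WT curves at 4 fragments and below them from 5 fragments on.

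Knockout peaks were wider than WT peaks of the same height. At summits of exactly 6 fragments the median width was 211 bp in WT 1, 215 bp in WT 2, 351 bp in Prmt6KO 1 and 276 bp in Prmt6KO 2. The difference averaged 100.5 bp (two-sided exact permutation p = 0.333, n = 2 each, the smallest possible), and it was 75 bp at exactly 5 fragments, 107.5 bp at exactly 8 and 42.5 bp over the matched level as a whole, each with groups that did not overlap. The lists were cut at different heights, however. A summit of 6 fragments stands 2 fragments above the lowest height in WT, 4 above it in Prmt6KO 1 and 3 above it in Prmt6KO 2, and 200 bp is the smallest width listed. At 2 fragments above the lowest height of each list the medians were 211 and 215 bp in WT and 286 and 221 bp in Prmt6KO. At a height of 2 times the lowest of each list (8, 8, 4 and 6 fragments), a comparison added after the data were seen, the medians were 265 and 277 bp in WT and 286 and 276 bp in Prmt6KO. Here the groups overlapped, and their means differed by 10 bp (exact permutation p = 0.667).

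The share of peaks within 1 kb of gene starts overlapped between the genotypes. Of the matched-level summits, 0.996% in WT 1 (989 summits, 95% Wilson interval 0.936% to 1.06%), 0.741% in WT 2 (512, 0.68% to 0.808%), 1.06% in Prmt6KO 1 (2107, 1.02% to 1.11%) and 0.84% in Prmt6KO 2 (1608, 0.8% to 0.881%) lay within 1 kb of the start of a protein-coding gene. These intervals cover counting error only. Windows of this size around the starts make up 1.46% of the sequence, so all 4 lists had fewer summits there than their share of sequence. The groups overlapped, with a mean difference of 0.0819 percentage points (exact permutation p = 0.667), and the sign turned without WT 2 or without Prmt6KO 1. Within 250 bp of a start the shares were 0.168% and 0.149% in WT and 0.235% and 0.172% in Prmt6KO, with both knockout lists above both WT lists (difference 0.0446 percentage points, exact permutation p = 0.333). Outside protein-coding genes and 1 kb around them lay 60.7% and 61.3% of summits in WT and 58% and 62.1% in Prmt6KO, where that class makes up 57.7% of the sequence. Here too the groups overlapped (exact permutation p = 1).

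The deficit at starts was deepest at CpG-rich starts. Starts were sorted by the observed over expected CpG of their 300-base window into 9816 CpG-rich (at least 0.6) and 7030 CpG-poor (under 0.35) distinct starts, with 3217 between. Within 500 bp of CpG-rich starts the density of summits, relative to 10 to 20 kb away on either side, was 0.245 in WT 1 (81 summits), 0.13 in WT 2 (27), 0.362 in Prmt6KO 1 (284) and 0.26 in Prmt6KO 2 (148). At the starts between these classes the same ratio was 0.57 and 0.283 in WT and 0.624 and 0.507 in Prmt6KO. At CpG-poor starts it was 0.833 and 0.816 in WT and 0.931 and 0.828 in Prmt6KO. In every list summits were thus rarest at CpG-rich starts, and next rarest at those between. Both knockout values at CpG-rich starts lay above both WT values, although WT 1 and Prmt6KO 2 were close. The log2 ratio averaged -2.49 ± 0.64 in WT and -1.70 ± 0.34 in Prmt6KO (SD, n = 2 each), a difference of 0.78 with p = 0.333 by the exact permutation test. It was 1.24 without WT 1 and 0.33 without WT 2. With a CpG threshold of 0.75 (difference 0.59) or at least 6 fragments in every list (0.64) the groups overlapped, with an exact permutation p of 0.667 for each. From 1 to 3 kb upstream of CpG-rich starts the ratio was 1.19 and 1.10 in WT and 0.961 and 0.991 in Prmt6KO, so the shoulder beside the dip was higher in both WT lists (exact permutation p = 0.333). Prmt6KO 1, with the lowest background, had the shallowest dip. WT 1 and WT 2, with backgrounds of 1.46 and 1.44 fragments, differed at 0.245 and 0.13, so the dip did not follow background over all lists. The part of background in the difference between genotypes, and that of the base composition of the amplified fragments, was not tested.

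**Figure D2:**
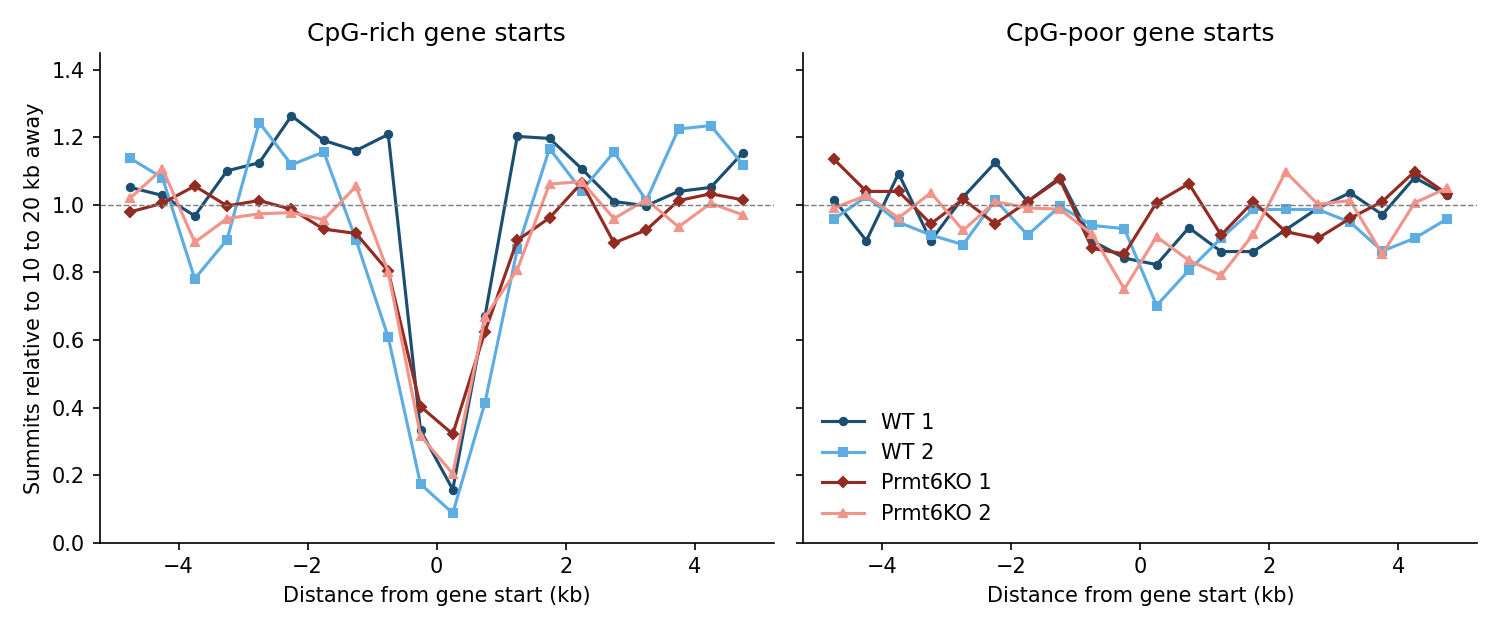
Density of matched-level summits in 500-bp steps within 5 kb of gene starts, relative to 10 to 20 kb away, for CpG-rich starts on the left and CpG-poor starts on the right, with 1 line for each list and positive distances lying downstream. The 500 bp after CpG-rich starts reached 0.157 and 0.0868 in WT 1 and WT 2 and 0.321 and 0.204 in Prmt6KO 1 and Prmt6KO 2, and CpG-poor starts showed no dip of this size.

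Few genes had a start peak in 1 genotype alone. A matched-level peak overlapped the 2-kb window around the start of 1152 and 585 of 16457 protein-coding genes in WT (7% and 3.56%) and of 2415 and 1779 in Prmt6KO (14.7% and 10.8%). It did so for 110 genes in both WT lists, 384 in both Prmt6KO lists and 48 in all 4. A start counted as gained when both knockout lists had such a peak and neither WT list had a peak of any height there, and as lost in the opposite case. By these rules 220 genes (1.34% of those examined) were gained and 12 (0.0729%) were lost, in lists where the knockout had more peaks to place. The rules were also unequal, since a peak of any height meant at least 4 fragments in WT but 2 in Prmt6KO 1 and 3 in Prmt6KO 2. The longer knockout lists left fewer windows free of any peak, so fewer starts could count as lost. With summits of at least 6 fragments in every list the counts were 10 gained and 12 lost, and with the stricter Poisson probability of 0.002 they were 23 and 2. With 1 list left out the rule asks less of that genotype: 1277 and 1888 starts were gained without Prmt6KO 1 and Prmt6KO 2, and 167, 356, 32 and 23 were lost without WT 1, WT 2, Prmt6KO 1 and Prmt6KO 2. The 2 knockout peaks overlapped each other at 66 of the 220 gained genes, and 73 of the 220 starts were CpG-rich, against 8184 of all 16457.

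The gained starts with the highest peaks were those of Vmn1r155, Gm3435, Gm3448, Nit1, Pfdn2 and Dip2b. Vmn1r155, a vomeronasal receptor gene, had peaks of 7 and 10 fragments in Prmt6KO 1 and Prmt6KO 2, which are 9.51 and 8.27 times the background of those lists. Nit1, which encodes an amidase, and Pfdn2, which encodes a subunit of the chaperone prefoldin, lie next to each other and shared 1 pair of overlapping peaks of 6 and 8 fragments (chr1:171344753-171345068 and chr1:171344595-171345001). Gm3435 and Gm3448 likewise shared a pair of 6 and 9 fragments. The peaks near a start of Dip2b, of 5 and 7 fragments, did not overlap each other. Among lost starts the highest peaks were at Emc3, a subunit of the membrane protein insertase of the endoplasmic reticulum (10 and 7 fragments in WT 1 and WT 2), and Phc3, a Polycomb repressive complex component (7 and 7). The others by the same order were 9430078G10Rik, Lrguk, Rsbn1 and Slc22a23, all at 6 to 8 fragments. The peaks in the 2 WT lists overlapped at 3 of the 12 lost genes.

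Prmt6 and Mfsd2a carried few peaks in any list. In Prmt6 and 5 kb either side (gene at chr3:110246104-110250999) there were 4 peaks of any height in WT 1, 0 in WT 2, 7 in Prmt6KO 1 and 4 in Prmt6KO 2, of which 1, 0, 2 and 1 reached the matched level. In Mfsd2a (chr4:122946850-122961194) there were 0 in both WT lists, 6 in Prmt6KO 1 and 3 in Prmt6KO 2, of which 1 and 2 reached the matched level, at 4 and 5 fragments. Both genes were below the mean of 5 peaks needed for the test across genes.

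Regional density set Prmt6KO 1 apart from the other 3 lists. Over 2411 bins of 1 Mb with a mean of at least 5 matched-level peaks, the coefficient of variation of peaks per bin was 0.522 in WT 1, 0.68 in WT 2 and 0.405 in Prmt6KO 2, but 0.245 in Prmt6KO 1. Away from chromosome 2 the log2 bin densities (2232 bins) correlated with Pearson's r of 0.844 between the WT lists and 0.839 and 0.868 between Prmt6KO 2 and WT 1 and WT 2. Those of Prmt6KO 1 with the other 3 lists were 0.436 to 0.501. Bins are not independent replicates, and the lists share depth and base composition effects. The bins were split by gene number into 4 groups of nearly equal size. In the group poorest in genes (0 to 2 genes) density relative to the list's mean was 1.13, 1.26 and 1.23 in WT 1, WT 2 and Prmt6KO 2 and 0.952 in Prmt6KO 1. In the richest group (11 to 67 genes) it was 0.881, 0.806 and 0.806, and 0.997. Peaks were thus denser in gene-poor sequence in both WT lists and in Prmt6KO 2, and nearly even in Prmt6KO 1, and the genotypes overlapped (exact permutation p = 0.667 for the log2 ratio of richest over poorest).

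**Figure D3:**
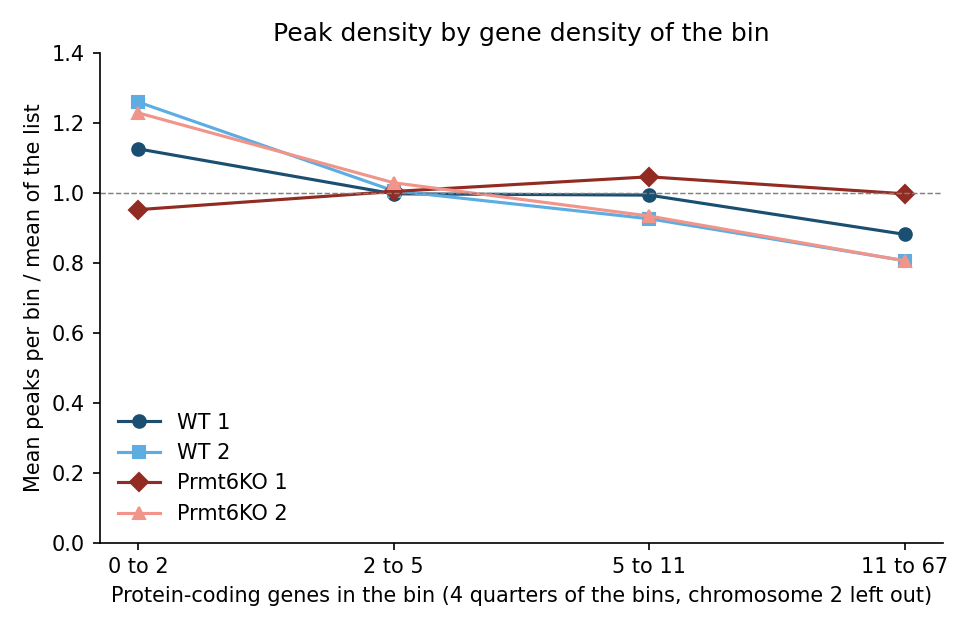
Mean peaks per 1 Mb bin, relative to the list's mean, in 4 groups of bins ordered by their number of protein-coding genes, with chromosome 2 left out. WT 1, WT 2 and Prmt6KO 2 went from 1.13, 1.26 and 1.23 to 0.881, 0.806 and 0.806, and Prmt6KO 1 stayed between 0.952 and 1.05.

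The clearest difference between the genotypes was a 66-Mb stretch of chromosome 2 (chr2:54000001-120000000) in which both knockout lists were sparse. Its bounds were set from the bin differences of these same lists. Values inside it and at its edges therefore describe it and are not independent support. WT 1 and WT 2 held 3104 and 2459 matched-level peaks there, and Prmt6KO 1 and Prmt6KO 2 held 2063 and 1772, although the knockout lists were longer. Per Mb and relative to the rest of the list, density was 1.15 and 1.31 in WT and 0.373 and 0.332 in Prmt6KO. Both knockout values were far below both WT values, and they were close to each other in spite of the different landscape of Prmt6KO 1 elsewhere. In 65 of the 66 bins both knockout lists lay below both WT lists. The exception was the bin at chr2:93000001-94000000, with 13, 5, 19 and 10 peaks. The share of such bins over all tested bins is not given here, so this count has no baseline. Groups without overlap were also common elsewhere. Among the protein-coding genes tested below, groups did not overlap, in either direction, at 52 of 56 in the stretch and at 1297 of 3045 outside it.

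The edges of this stretch, at the bounds so chosen, were sharp. In the 5 Mb before it Prmt6KO 1 and Prmt6KO 2 held 422 and 355 peaks, and in its first 5 Mb they held 129 and 133, while WT 1 and WT 2 went from 217 and 163 to 260 and 214. In its last 5 Mb the knockout lists held 150 and 114 peaks, and in the 5 Mb after it 429 and 380, while the WT lists went from 212 and 144 to 193 and 131. At 6 fragments and above the deficit was deeper than over all peaks: relative to the rest of chromosomes 1 to 19, density in Prmt6KO 1 was 0.496 among all its peaks and 0.223 among those of at least 6 fragments, and in Prmt6KO 2 it was 0.359 and 0.251. Of the few peaks of at least 9 fragments, 7 in Prmt6KO 1 and 10 in Prmt6KO 2 lay in the stretch, at relative densities of 0.507 and 0.189. On chromosome X of WT 1, which was sparse in that list, relative density was 0.182 among all peaks and 0.175 at the matched level. Whether the number of copies of this stretch differed between the cells of the 2 genotypes was not tested.

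Tested bin by bin, this stretch held most of the sparser calls. limma with a trend, fitted to the log2 density of all 2411 bins with Benjamini-Hochberg adjustment at 0.05, called 49 bins sparser in Prmt6KO (2.03% of bins) and 1 denser (0.0415%), and 47 of the 49 lay in the stretch. It held 48 of 111 sparser bins with no filter on low numbers. That fit tested 2470 bins, adding those with a mean under 5 peaks. An empty bin scores lower in the longer knockout lists, since 1 is added before scaling to the list total. The 111 may include such bins. The 66 bins of the stretch had a median log2 difference of -1.73 (from -2.75 to -0.54), against a median over all bins of 0.07. The largest differences were at chr2:67000001-68000000, with 51, 39, 15 and 15 peaks in WT 1, WT 2, Prmt6KO 1 and Prmt6KO 2 and a log2 difference of -2.75 ± 0.53 (SE, limma adjusted p = 3.06e-05), and at chr2:54000001-55000000, with 55, 47, 22 and 14 peaks and a difference of -2.72 ± 0.46 (limma adjusted p = 2.07e-06). The number of calls changed with the list left out. A fit without 1 list takes its spread from the 2 lists of the other genotype alone. Away from chromosome 2, r of the log2 bin densities was 0.844 between the WT lists and 0.46 between the Prmt6KO lists. Such counts therefore do not measure how far the calls rest on 1 list. Without WT 2 limma called 0 bins in either direction, with 43 at an unadjusted p under 0.05, and without WT 1 it called 11 sparser bins, against 58 without Prmt6KO 1 and 66 without Prmt6KO 2. Without any single list all 66 bins of the stretch stayed lower in Prmt6KO, with medians from -1.84 to -1.59. The stretch had been chosen with all 4 lists.

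**Figure D4:**
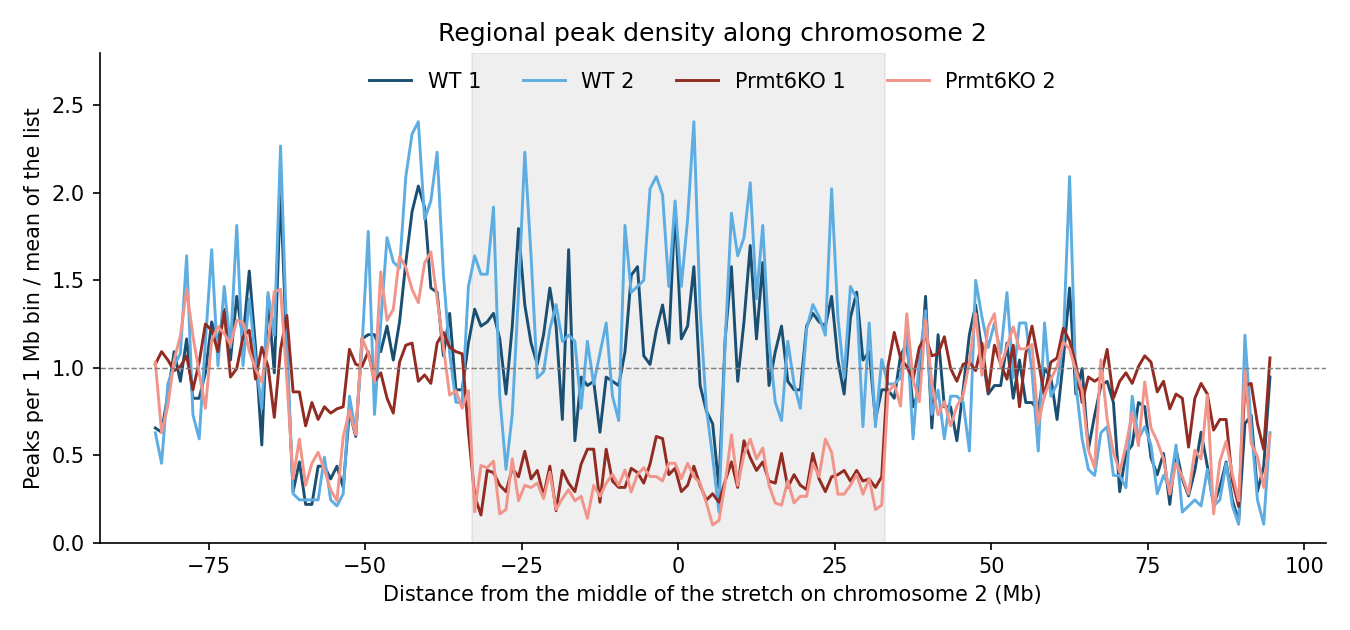
Matched-level peaks in each 1 Mb bin of chromosome 2, relative to the list's mean over all tested bins, against the distance from the middle of the sparse stretch in Mb, which is shaded. Inside the stretch the 2 knockout lines have medians of 0.37 and 0.334 and stay under 1 in all 66 bins, the WT lines have medians of 1.17 and 1.27 with dips to 0.316 and 0.174, and the 4 lines come together again on either side.

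The 3 other called bins were separate from it. Near it on chromosome 2 was chr2:45000001-46000000, with 84, 69, 76 and 109 peaks (limma adjusted p = 0.012). The bin chr3:15000001-16000000, which holds the signal-regulatory protein genes Sirpb1a, Sirpb1b and Sirpb1c, had 105, 83, 85 and 135 peaks in WT 1, WT 2, Prmt6KO 1 and Prmt6KO 2, a log2 difference of -1.04 ± 0.27 (SE, limma adjusted p = 0.0066). Its density was 2.55 and 2.90 times the list's mean in WT and 1.03 and 1.70 times in Prmt6KO. This bin was not called without WT 1, WT 2 or Prmt6KO 1 (limma adjusted p = 0.346, 0.999 and 0.999), nor at the 3 other matched levels (0.0849 to 0.81). The denser bin, chr17:6000001-7000000, had 15 and 17 peaks in WT and 123 and 71 in Prmt6KO, a log2 difference of 1.24 ± 0.37 (limma adjusted p = 0.0416), and it was called neither without WT 1 nor without WT 2 or Prmt6KO 1. It holds 15 protein-coding genes, among them the dynein light chain genes Dynlt1a, Dynlt1b, Dynlt1c and Dynlt1f. Both bins hold families of near-identical genes, where reads that fit several copies cannot be placed with certainty. Adjusted over the bins of the other chromosomes alone, a check added after the data were seen, limma called 0 bins, with 163 at an unadjusted p under 0.05.

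Gene by gene, the differences again centred on chromosome 2. Of 20665 protein-coding genes, 3101 had a mean of at least 5 matched-level peaks in the gene and 5 kb either side, mostly long genes. limma called 42 sparser (1.35% of those tested) and 3 denser (0.0967%) in Prmt6KO, and 22 of the 42 lay within the stretch. The number of sparser genes was 77 without WT 1, 4 without WT 2 and 18 without Prmt6KO 1. All 56 tested genes in the stretch were lower in Prmt6KO, with a median log2 difference of -1.69 against -0.07 for the 3045 genes elsewhere. The stretch was chosen on the same lists, so these values are not independent support. When each gene was scaled to the peaks within 1 Mb on either side, limma called 0 genes in either direction (300 at an unadjusted p under 0.05), and the 56 genes of the stretch ranged from -1.54 to 1.26 around a median of -0.01.

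The gene with the largest difference was Galnt13, which encodes an enzyme that starts O-linked glycosylation in the nervous system. It held 41 and 34 peaks in WT 1 and WT 2 and 14 and 4 in Prmt6KO 1 and Prmt6KO 2, and fell by 3.38 ± 0.42 on the log2 scale (SE, limma adjusted p = 1.81e-06). The fatty acid elongation enzyme gene Hsd17b12 held 11 and 11 against 2 and 3 peaks (log2 difference -3.03, limma adjusted p = 0.0026), and the ether lipid synthesis gene Agps 10 and 15 against 4 and 3 (-2.80, limma adjusted p = 0.00187). Both knockout lists were below both WT lists at each of these genes even before the longer knockout lists are taken into account. Scaled to the peaks within 1 Mb, the log2 differences of Galnt13, Hsd17b12 and Agps were -1.12, -1.54 and -1.37, none past the limma threshold. The ubiquitin ligase gene Ubr3, the calcitonin receptor-like receptor gene Calcrl, the phosphatase inhibitor gene Ppp1r1c, the ion channel family gene Ano3, the galactosyltransferase gene B3galt1 and the kinase gene Map3k20, all in the stretch, had log2 differences from -2.76 to -2.32. Septin7 on chromosome 9, a cytoskeletal GTPase gene, was the gene outside chromosome 2 with the largest fall, with 9 and 9 peaks in WT and 2 and 6 in Prmt6KO (log2 difference -2.36 ± 0.57, limma adjusted p = 0.0261). Scaled to the peaks within 1 Mb, its log2 difference was -2.31, not past the limma threshold. With chromosome 2 left out, limma called 0 genes in either direction, Septin7 included.

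Denser genes numbered 3. Trappc9, which encodes a vesicle tethering factor, held 3 and 0 peaks in WT 1 and WT 2 and 38 and 18 in Prmt6KO 1 and Prmt6KO 2 (log2 difference 2.53, 95% interval 1.41 to 3.65, limma adjusted p = 0.0103). Tmem132c, a transmembrane protein gene, held 2 and 0 against 26 and 20 (2.55, 95% interval 1.36 to 3.73, limma adjusted p = 0.0175). Dst, which encodes the cytoskeletal linker dystonin, held 5 and 5 against 45 and 33 (1.49, 95% interval 0.67 to 2.31, limma adjusted p = 0.0494). Trappc9 and Tmem132c reached the mean of 5 peaks needed for the test only through the knockout lists. Sparser genes such as Hsd17b12, Agps and Septin7 likewise reached it only through the WT lists. The groups did not overlap at any of the 3 denser genes, and the WT levels rest on few peaks. Over all 3101 tested genes, groups did not overlap at 1349. Without WT 2 or without Prmt6KO 1 limma called 0 genes denser, and without WT 1 it called 34.

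**Figure D5:**
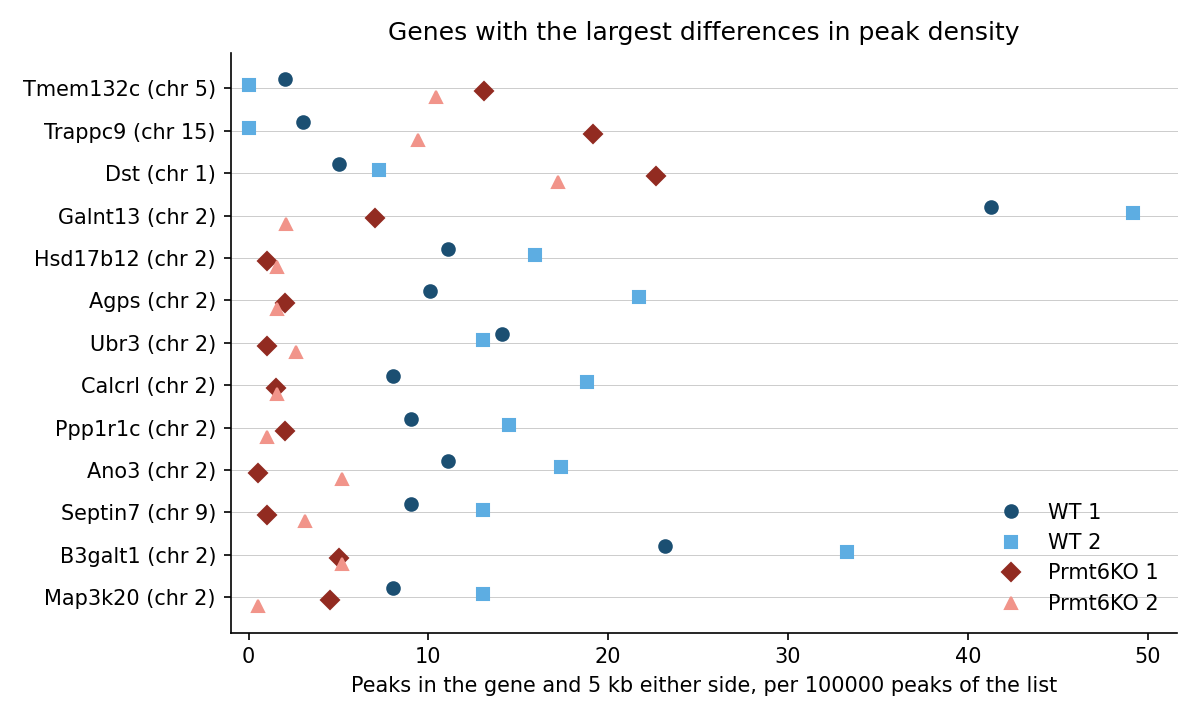
Matched-level peaks in each gene and 5 kb either side, per 100000 peaks of the list, for the 3 denser genes and the 10 sparser genes with the largest differences that lie over 1 Mb apart. The WT symbols lie left of the knockout symbols for Tmem132c, Trappc9 and Dst and right of them for the other 10, with Galnt13 at 41.3 and 49.2 in WT and 7.05 and 2.09 in Prmt6KO.

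Zinc finger protein genes, a large family of DNA-binding repressors of which many sit in clusters of recent copies, were the gene group with calls. Of 391 such genes, 43 were tested, 11 were sparser in Prmt6KO and 0 denser, where 1.35% of all 3101 tested genes were sparser, and the median log2 difference was -0.96 against -0.09 over all of them. 9 of the 11 lie in 1 cluster of chromosome 4. In Zfp978 (chr4:147124882-147392027) there were 162 and 166 peaks in WT 1 and WT 2 and 142 and 180 in Prmt6KO 1 and Prmt6KO 2, so the numbers themselves overlapped and the log2 difference of -1.27 ± 0.28 (limma adjusted p = 0.0103) arose on scaling to the longer knockout lists. Zfp980 held 30, 30, 21 and 29 peaks (-1.51, limma adjusted p = 0.0227). With summits of at least 6 fragments in every list the sign turned for 8 of these 9 genes, to 0.71 for Zfp978 and 0.46 for Zfp980. Genes of the cluster are near-identical in part, and Zfp981 lies within the span of Zfp993, so their peaks are not independent.

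The other gene groups had no gene past the threshold. Of 9 genes for arginine methyltransferases on chromosomes 1 to 19, 0 had enough peaks for the test. The medians of the log2 difference were -0.71 for 3 tested of 18 genes of H3K4 methylation and H3R2 readers, 0.06 for 11 of 30 blood and leukemia stem cell regulators, -0.30 for 4 of 19 lipid and fatty acid transport genes and -0.37 for 5 of 17 writers, erasers and readers of RNA m6A. All 28 long neuronal adhesion and synapse genes were tested, with a median of -0.07. Of 94 cytosolic ribosomal protein genes 4 were tested (median 0.41), of 20 myeloid effector and receptor genes and of 67 histone cluster genes 0, and of the B cell, T cell and erythroid groups 1, 1 and 2 (medians -0.02, -0.48 and 0.46). Of 12 keratin and epidermal genes 2 were tested, the neighbouring cornified envelope genes Sprr2a1 and Sprr2a2, with log2 differences of -1.24 and -1.33 and limma adjusted p of 0.157 and 0.137. At gene starts, where short genes can be seen, the receptor families of the nose held peaks most often in Prmt6KO 2: 938 olfactory receptor genes had a start peak in 10.8%, 8.85%, 12.7% and 19.6% of cases in WT 1, WT 2, Prmt6KO 1 and Prmt6KO 2, and 320 vomeronasal receptor genes in 15.6%, 13.8%, 19.1% and 32.2%. Over all 16457 genes these shares were 7%, 3.56%, 14.7% and 10.8%. Cytosolic ribosomal protein genes, whose promoters are CpG-rich as a rule, had a start peak in 0, 0, 7 and 4 of 72 cases.

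The positions of peaks were shared as much across genotypes as within them. Each list was reduced to its 69112 highest summits, and the share of peaks overlapping by at least 1 bp was averaged over the 2 directions of each pair. It was 5.56% between the WT lists and 5.03% between the Prmt6KO lists. Across genotypes it was 5.82% for WT 1 with Prmt6KO 2, 5.41% for WT 2 with Prmt6KO 2, 4.63% for WT 1 with Prmt6KO 1 and 4.08% for WT 2 with Prmt6KO 1. WT 1 thus shared slightly more of its peaks with Prmt6KO 2 than with WT 2. The mean within genotypes exceeded that across by 0.313 percentage points, which is under the SD of the 2 within-genotype pairs (0.372), and the sign turned without WT 2 or without Prmt6KO 1.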

How the data were processed

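Values came from the deposited MACS2 peak lists of 4 H3R2me2a samples (mm10). Tools listed in the submitters' processing notes are MACS2 2.1.0, HISAT2, bedtools, bcl2fastq 2.17 and Trim Galore, and there is 1 list per sample. Per the file headers, the authors' tables give pileup (signal, in whole fragments), fold enrichment (a ratio to background) and −log10 p and q values, of which the q values were not used to select peaks. Total reads are not given in the sources used here, so depth is read from pileup and background, and peaks with summits of a few fragments carry large counting error. Replicates were grouped by the labels.

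From these lists, background was computed as (pileup + 1) / fold enrichment - 1. Matched-level summits were counted in 1 Mb bins and in protein-coding genes with 5 kb either side (RefSeq, GRCm38.p6), and log2((peaks + 1) / list total) was fitted with limma 3.58.1 (R 4.3.3) with a trend, for features with a mean of at least 5 peaks, which favours long genes. This scale understates large differences of low counts. Since the same 1 is added in lists of unequal length, it also moves low counts towards lower values in Prmt6KO. The median log2 difference over the 3101 tested genes was -0.09, and 0.02 with a pseudocount of 0.25. The mean of 5 peaks is taken over all 4 lists, so a feature can pass through the genotype where it is high. Benjamini-Hochberg adjustment covered all features tested. Other comparisons used two-sided exact permutation tests of 2 lists against 2. The fit was tested on simulated data. Gene starts came from RefSeq's promoter table, which lists strand and holds 16457 of 20665 genes, and other genes were left out there. Chromosomes X and Y were left out except where stated.

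Named genes were Prmt6, Mfsd2a, the 10 largest called log2 differences in each direction with groups not overlapping and over 1 Mb apart, the 6 gained and 6 lost starts with the highest peaks over background, the called bins with the largest differences and called members of 16 gene lists. Members and lists were chosen with earlier results of these data known. Genes and bins named beyond this rule were chosen after their values were seen. Alternatives were other matched levels, windows, bins, filters, pseudocounts, a neighbourhood scaling, a replicate block and each list left out. The CpG classes, the shared width level, the 100 bp summit distance and the fits without chromosome 2 were added after the data were seen.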

Additional observations from a re-analysis of the deposited data

How the results depend on the processing

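With 2 lists a group, no permutation test could go below 0.333, and peaks of a few fragments limit every count. At least 6 fragments in every list turned the log2 difference in peak number to -1.51 and the share outside genes to 0.382 percentage points, gave 10 gained starts, 24 sparser and 0 denser bins, and 2 sparser and 0 denser genes. It also turned the log2 differences of Ugt1a1 (0.84), Zfp980 (0.46), Zfp600 (0.20), Zfp992 (1.01), Zfp981 (0.62), Zfp993 (0.44), Zfp978 (0.71), Zfp982 (0.30), Zfp979 (0.54), 4930467E23Rik (0.71), 9530057J20Rik (0.62), Gm21119 (1.04), Gm7827 (0.31) and Sfi1 (1.10); the cause was not tested. The Poisson tail of at most 0.002 gave 23 gained and 2 lost starts, 0 denser bins, and 0 denser and 3 sparser genes out of 768 tested. At least 4 times the background gave 552 gained starts, 0 denser bins, and 8 denser and 106 sparser genes. A window of 2.5 kb gave 793 gained and 25 lost starts. Bins of 2 Mb gave 0 denser and 31 sparser and bins of 0.5 Mb gave 0 and 80. No filter gave 4 denser and 111 sparser bins out of 2470, among them bins with a mean under 5 peaks. A mean of at least 10 peaks gave 5 denser genes, and the pseudocount 0.25 gave 6 denser and 36 sparser genes. Scaling to the peaks within 1 Mb gave 0 genes in both directions and turned Ryr3 (0.17), Fmn1 (0.26) and Zfp993 (0.060). Without chromosome 2, 0 bins and 0 genes were called in either direction.

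The replicate numbers are only shared labels, with 2 pairs. The deviations of same-numbered lists correlated at 0.426 over bins and 0.149 over genes. With the replicate block limma called 83 denser and 140 sparser bins, 65 of the latter in the stretch of chromosome 2, and 9 denser and 73 sparser genes.

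Leaving out 1 list at a time gave 0 to 1 denser and 0 to 66 sparser bins, 0 to 34 denser and 4 to 77 sparser genes, 246 to 1888 gained and 23 to 356 lost starts. The start share differed by -0.0455 to 0.209 percentage points, the share outside genes by -3.03 to 1.12, and sharing within minus across genotypes by -0.19 to 1.21. Peak number, width and the density at CpG-rich starts kept their direction without any single list.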
